A study of Mus with 15 samples.

Results

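In all, 10 transcripts of the collagens, elastic fibres and other matrix proteins of the arterial wall were followed in the abdominal aorta of 15 mice, 1 transcript for each of Col1a1, Col1a2, Col3a1, Eln, Fbn1, Lox, Fn1, Sparc, Mmp2 and Timp1. They were found by a list of Ensembl transcript identifiers, with no threshold on their values. All 10 were found in each of the 15 files, among 126719 transcripts listed for Control and AngII mice and 125443 listed for AngII+QDG mice. The mice were C57BL/6 wild-type males, 8 to 10 weeks old, in 3 groups of 5. AngII mice received angiotensin II, the pressor peptide of the renin-angiotensin system, at 500 ng/kg/min from an osmotic pump for 14 days, and Control mice received saline from the same kind of pump. AngII+QDG mice received the same infusion together with Qingda granule (QDG), a herbal formula given into the stomach at 1.145 g/kg/day, while Control and AngII mice received water by that route. The question was how the aorta differed after AngII infusion and whether QDG altered that difference.

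The aortic wall takes its stiffness from fibrillar collagens and its recoil from elastic fibres. Collagen I is assembled from the chains encoded by Col1a1 and Col1a2, collagen III from the chain of Col3a1, and elastic fibres from elastin laid on a scaffold of fibrillin. Lysyl oxidase cross-links collagen and elastin, fibronectin and Sparc take part in matrix assembly, and Mmp2 and Timp1 are a matrix protease and a protease inhibitor.

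Levels are given in FPKM, in which fragment numbers are corrected for transcript length and library size, so levels of different transcripts can be set side by side. Each value belongs to 1 transcript and not to the gene. The other transcripts of these genes are not named in the files, and fragments of a gene can be divided among its transcripts, so no level per gene could be formed. Neither the files nor the RefSeq annotation used for positions pair these identifiers with gene names, and the names used here are those given with the identifiers. Aortic cell type markers and further matrix genes could for the same reason not be looked up, and the labelled tissue was not checked against its markers. Positions are those of the genes in the RefSeq annotation of build GRCm38.p6, where all 10 symbols were found.

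The AngII+QDG mice were quantified on a different list of transcripts from the other 10 mice, so that the list and the QDG treatment cannot be told apart in any comparison with these mice. Summed FPKM ranged from 454587 to 547311 over the 15 mice, and the 10 matrix transcripts made up 0.119% to 0.447% of it. No pair of files held identical values (0 pairs), and log2(FPKM + 1) correlated between mice with r from 0.808 to 0.882 over 23914 transcripts with at least 1 FPKM in at least 5 mice. Absolute depth is unknown for FPKM. The mouse numbers mark separate animals.

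Over all 15 mice, the Sparc transcript had the highest median level (760.0 FPKM), followed by Col1a1 (301 FPKM), Col3a1 (285 FPKM), Mmp2 (46.4 FPKM), Eln (38.9 FPKM) and Lox (22.6 FPKM). Col1a2 (4.71 FPKM), Fn1 (4.06 FPKM), Timp1 (3.60 FPKM) and Fbn1 (0.437 FPKM) followed at lower medians. Levels of Col1a1 and Col3a1 overlapped, as did those of Mmp2, Eln and Lox, while the highest level of Eln, 94.6 FPKM, lay below the lowest of Col1a1, 142 FPKM. The spread between mice differed widely among the members. Levels of Lox ranged from 15.2 to 32.1 FPKM and those of Col1a1 from 142 to 394 FPKM, whereas the Col1a2 transcript ranged from 1.09 to 433 FPKM and that of Fn1 from 0.0164 to 7.76 FPKM.

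**Figure D1:**
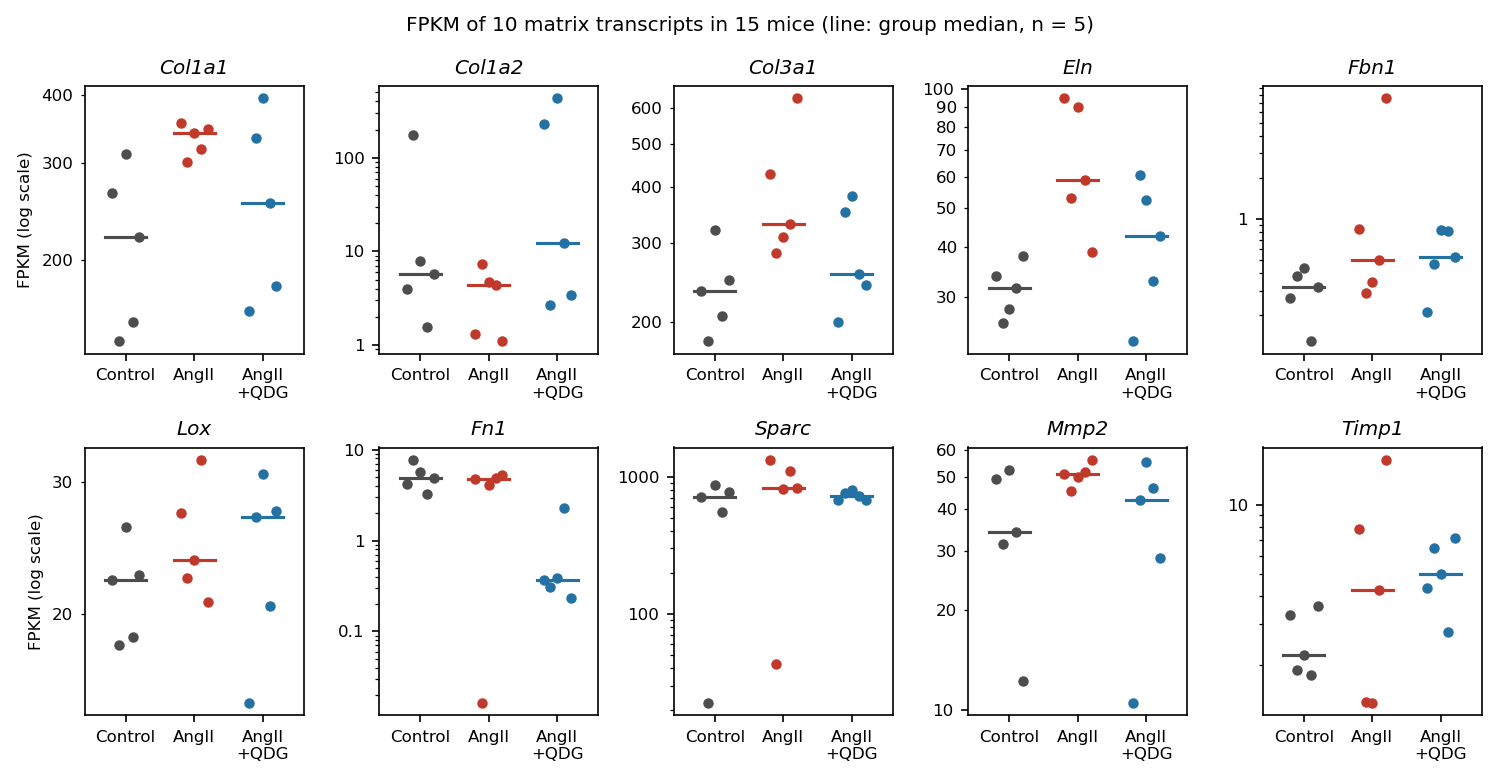
FPKM (log axis) of the 10 matrix transcripts in each mouse, 1 point per mouse and 1 panel per transcript, with a line at the median of each group of 5. The 5 AngII mice lie above all Control mice for Eln, the 5 AngII+QDG mice lie below all Control mice for Fn1, and single mice stand far from their group for Col1a2, Fbn1, Fn1 and Sparc.

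Among the fibrillar collagens, the transcript of Col1a1 (ENSMUST00000001547; gene at chr11:94936224-94953042) was measured at 265, 142, 312, 154 and 220.0 FPKM in Control mice 3996, 4000, 4086, 3971 and 3994. In AngII mice 3988, 3989, 3986, 3987 and 4048 its levels were 356, 301, 341, 318 and 346 FPKM, and in AngII+QDG mice 3981, 3982, 3983, 3984 and 3985 they were 162, 334, 394, 254 and 179 FPKM. In all, 4 of the 5 AngII mice lay above every Control mouse, and the AngII mice lay closer together than either other group. Mean levels were 219 ± 72.3, 332 ± 22.2 and 265 ± 99.5 FPKM (SD, n = 5 each). Differences were fitted with limma on log2(FPKM + 1), and a difference was called, by the criterion of the study, at a fold change of 2 or more with an unadjusted p below 0.05. Col1a1 was 1.58-fold higher in AngII than in Control mice (log2 fold change 0.66, SE 0.21, limma unadjusted p = 0.0111, adjusted p = 0.995), which was not called. In AngII+QDG mice it was lower than in AngII mice (log2 fold change -0.41, SE 0.24, limma unadjusted p = 0.116), within the spread between mice, with log2 fold changes of -0.25 without AngII+QDG mouse 3981 and -0.57 without mouse 3983 (limma unadjusted p = 0.276 and 0.0238). In bulk tissue, a change in the number of cells that make a transcript and a change in the RNA per cell cannot be told apart.

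Col3a1 (ENSMUST00000087883; gene at chr1:45311538-45349706) had levels close to those of Col1a1. The Control mice, in the same order, were at 234, 181, 320.2, 206 and 248 FPKM, the AngII mice at 427, 285, 309, 330.5 and 632 FPKM, and the AngII+QDG mice at 199, 351, 381, 256 and 242 FPKM. Of the AngII mice, 3 lay above every Control mouse, and AngII mouse 4048 held the highest level of all. Mean levels were 238 ± 53.0, 397 ± 142 and 286 ± 77.0 FPKM (SD, n = 5 each). Col3a1 was 1.62-fold higher in AngII than in Control mice (log2 fold change 0.70, SE 0.24, limma unadjusted p = 0.0143, adjusted p = 0.995) and was not called. Its difference between AngII+QDG and AngII mice was -0.45 on the log2 scale (SE 0.25, limma unadjusted p = 0.106), and -0.27 without AngII mouse 4048.

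The Col1a2 transcript (ENSMUST00000031668; gene at chr6:4505618-4541543) behaved unlike its partner chain. Its levels were 4.01, 176, 7.92, 1.54 and 5.79 FPKM in Control mice, 1.302, 7.36, 4.71, 4.41 and 1.09 FPKM in AngII mice, and 227, 2.66, 433, 12.4 and 3.39 FPKM in AngII+QDG mice. Of the 15 mice, 3 (Control mouse 4000 and AngII+QDG mice 3981 and 3983) exceeded 100 FPKM, and the other 12 lay at or below 12.4 FPKM. No group difference of Col1a2 was called, with log2 fold changes of -1.36 (SE 1.01, limma unadjusted p = 0.208) in AngII vs Control and 2.81 (SE 1.32, limma unadjusted p = 0.0588) in AngII+QDG vs AngII. Without Control mouse 4000 the former was -0.34 (limma unadjusted p = 0.517). The latter fell to 2.07 without AngII+QDG mouse 3981 and to 1.84 without mouse 3983 (limma unadjusted p = 0.14 and 0.135), and it was called when mouse 3982 or 3985 was left out, at 3.56 and 3.50 (limma adjusted p = 0.485 and 0.473).

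Of the elastic fibre transcripts, Eln (ENSMUST00000015138; gene at chr5:134702595-134747368), which encodes elastin, was the only one of the 10 called in AngII vs Control. Levels in Control mice were 33.7, 25.8, 27.9, 31.6 and 38.0 FPKM, and in AngII mice 94.6, 53.2, 89.9, 59.1 and 38.9 FPKM. AngII+QDG mice were at 23.2, 60.6, 52.4, 32.9 and 42.7 FPKM. Every AngII mouse lay above every Control mouse, although AngII mouse 4048 exceeded the highest Control mouse by little. The AngII+QDG mice spread over both other groups, 1 of them below all Control mice and 3 of them above. Mean levels were 31.4 ± 4.83, 67.1 ± 24.1 and 42.4 ± 14.9 FPKM (SD, n = 5 each). Eln was 2.01-fold higher in AngII than in Control mice (log2 fold change 1.01, 95% interval 0.47 to 1.54, limma unadjusted p = 0.0018), and its adjusted p over all transcripts tested was 0.848. The fold lay just above the criterion, and Eln was no longer called when Control mouse 4000 or 4086 or AngII mouse 3988 or 3986 was left out, at log2 fold changes of 0.94, 0.97, 0.87 and 0.89. Its difference between AngII+QDG and AngII mice was -0.65 on the log2 scale (95% interval -1.34 to 0.03, limma unadjusted p = 0.0598, adjusted p = 0.675). The unadjusted p was 0.041 in limma after upper quartile scaling and 0.0305 with all 3 groups in 1 fit. Leaving out 1 mouse, this difference ranged from -0.46 without AngII+QDG mouse 3981 to -0.83 without AngII mouse 4048 (limma unadjusted p = 0.143 and 0.021). Between AngII+QDG and Control mice, Eln differed by 0.36 (SE 0.24, limma unadjusted p = 0.17), or 0.55 without AngII+QDG mouse 3981 (limma unadjusted p = 0.0185) and 0.21 without mouse 3982.

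Fbn1 (ENSMUST00000028633; gene at chr2:125300594-125506485), which encodes the scaffold protein fibrillin-1, was low in this transcript. Control mice were at 0.263, 0.385, 0.437, 0.128 and 0.317 FPKM, AngII mice at 0.845, 0.289, 0.349, 0.505 and 7.59 FPKM, and AngII+QDG mice at 0.211, 0.468, 0.823, 0.809 and 0.528 FPKM. AngII mouse 4048 was the only mouse above 1 FPKM. Fbn1 therefore did not pass the filter of 1 FPKM in at least 5 of 10 mice in any comparison, and it was tested alone. In total, 3 AngII mice and 4 AngII+QDG mice lay above every Control mouse, with differences from Control of 0.69 on the log2 scale (2-sided exact permutation p = 0.103) and 0.25 (exact permutation p = 0.0873). Without AngII mouse 4048 the difference between AngII and Control mice was 0.19 (exact permutation p = 0.183). The difference between AngII+QDG and AngII mice was -0.44 (exact permutation p = 0.667), and the smallest p that 5 against 5 mice allow is 0.00794.

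Lox (ENSMUST00000025409), the cross-linking enzyme lysyl oxidase, varied least of the 10 between mice, with a level 2.11-fold higher in the highest mouse than in the lowest. Its levels were 22.2, 18.2, 26.1, 18.6 and 22.6 FPKM in Control mice, 27.3, 22.3, 23.6, 32.1 and 20.7 FPKM in AngII mice, and 15.2, 26.9, 30.7, 20.5 and 27.4 FPKM in AngII+QDG mice. All 3 groups overlapped. Lox differed by 0.21 on the log2 scale between AngII and Control mice (95% interval -0.13 to 0.55, limma unadjusted p = 0.192), or 0.12 without AngII mouse 3987, and by -0.08 between AngII+QDG and AngII mice (95% interval -0.52 to 0.36, limma unadjusted p = 0.689), so that with these mice a fold change of 2 lay outside both intervals.

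Fn1 (ENSMUST00000055226; gene at chr1:71585473-71653280, for which RefSeq lists 15 transcripts), the transcript of fibronectin, was the only one of the 10 called in comparisons with AngII+QDG mice. Levels were 4.19, 7.76, 5.74, 3.21 and 4.89 FPKM in Control mice and 4.80, 0.0164, 4.06, 4.85 and 5.31 FPKM in AngII mice. In AngII+QDG mice they were 0.371, 0.310, 0.382, 2.26 and 0.233 FPKM. All 5 AngII+QDG mice lay below every Control mouse and below 4 of the 5 AngII mice, the exception being AngII mouse 3989, which had the lowest level of all 15. Fn1 was 3.77-fold lower in AngII+QDG than in Control mice (log2 fold change -1.91, SE 0.30, limma unadjusted p = 7.47e-05, adjusted p = 0.00762) and 2.56-fold lower than in AngII mice (log2 fold change -1.36, SE 0.51, limma unadjusted p = 0.0235, adjusted p = 0.453). Both were called. These folds are on the log2(FPKM + 1) scale and understate the change of a transcript at such levels, since mean levels were 5.16 ± 1.72, 3.81 ± 2.17 and 0.712 ± 0.870 FPKM (SD, n = 5 each) in Control, AngII and AngII+QDG mice. Against Control, the 5 Control mice, the group in which Fn1 was high, were enough for it to pass the filter, and AngII+QDG mouse 3984 also reached 1 FPKM. Against AngII, Fn1 passed through 4 AngII mice and AngII+QDG mouse 3984. Without the filter, the log2 fold changes were the same and the unadjusted p-values of limma 6.49e-05 and 0.0232. The difference from AngII mice was no longer called with a pseudocount of 0.1 (log2 fold change -1.95, limma unadjusted p = 0.101) or without AngII+QDG mouse 3985 (-1.27, limma unadjusted p = 0.0505), and without AngII mouse 3989 it was -1.86 (limma adjusted p = 0.0136). The difference from Control mice was -3.09 with a pseudocount of 0.1 (limma adjusted p = 0.0129). Between AngII and Control mice, Fn1 differed by -0.56 on the log2 scale (SE 0.49, limma unadjusted p = 0.278), and by -0.06 without mouse 3989. Here too, the other list of transcripts and the QDG treatment cannot be told apart.

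Sparc (ENSMUST00000018737; gene at chr11:55394159-55420080), a collagen-binding glycoprotein, was the most abundant of the 10 in 13 of 15 mice and fell far below them in Control mouse 4000 and AngII mouse 3989. Control mice were at 712, 22.5, 876, 552 and 769 FPKM, AngII mice at 1329.8, 43.3, 815, 1096 and 831 FPKM, and AngII+QDG mice at 674, 760.0, 797, 723 and 671 FPKM. The groups overlapped, and the AngII+QDG mice lay closest together. No difference of Sparc was called. The log2 fold change in AngII vs Control was 0.56 (SE 1.20, limma unadjusted p = 0.649) with all mice and 0.47 (SE 0.23, limma unadjusted p = 0.07) without both low mice. In AngII+QDG vs AngII it was 0.44 (SE 0.81, limma unadjusted p = 0.601) and turned to -0.46 (SE 0.18, limma unadjusted p = 0.0277, adjusted p = 0.57) without AngII mouse 3989.

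The protease Mmp2 (ENSMUST00000034187; gene at chr8:92827290-92853421) was held in a narrow range in AngII mice, at 50.8, 45.3, 49.9, 51.5 and 56.3 FPKM. Control mice were at 49.4, 31.4, 52.4, 34.2 and 12.2 FPKM and AngII+QDG mice at 10.5, 42.7, 55.4, 46.4 and 28.6 FPKM, so both other groups held mice near the AngII level and mice far below it. Its log2 fold changes were 0.64 (SE 0.33, limma unadjusted p = 0.0853) in AngII vs Control, -0.64 (SE 0.37, limma unadjusted p = 0.116) in AngII+QDG vs AngII and -0.0046 (SE 0.49, limma unadjusted p = 0.993) in AngII+QDG vs Control. None was called. In AngII vs Control it was 0.30 without Control mouse 3994 and 0.81 without Control mouse 4086 (limma unadjusted p = 0.109 and 0.0373), and in AngII+QDG vs AngII -0.26 without AngII+QDG mouse 3981 and -0.83 without mouse 3983 (limma unadjusted p = 0.184 and 0.0508).

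Timp1 (ENSMUST00000009530; gene at chrX:20870166-20874737), the inhibitor, was at 3.31, 1.89, 2.21, 1.81 and 3.60 FPKM in Control mice, 7.88, 1.37, 1.36, 4.25 and 15.8 FPKM in AngII mice and 4.33, 6.49, 4.97, 2.78 and 7.18 FPKM in AngII+QDG mice. The AngII mice divided, with 3 above and 2 below all Control mice, and 4 of the 5 AngII+QDG mice lay above all Control mice. Timp1 was 1.70-fold higher in AngII+QDG than in Control mice (log2 fold change 0.77, SE 0.24, limma unadjusted p = 0.0102, adjusted p = 0.26), which was not called. In AngII vs Control its log2 fold change was 0.62 (SE 0.52, limma unadjusted p = 0.26), or 0.20 without AngII mouse 4048, and in AngII+QDG vs AngII 0.15 (SE 0.53, limma unadjusted p = 0.78).

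By comparison, 9 of the 10 transcripts passed the filter each time, Fbn1 being the exception. In AngII vs Control, 1 of 9 (Eln) was called higher, against 0.64% of all 27327 transcripts tested, and 0 were called lower, against 0.856%. Of the 9, 3 (Col1a1, Col3a1 and Eln) had a limma unadjusted p below 0.05, against 4.75% of all tested, and 0 an adjusted p below 0.05, against 0.00732%. Values of 1 of the 9 (Eln) did not overlap between groups, against 0.732% of all tested, and this separation was lost with upper quartile scaling (0 of 9, against 0.855%). Of the 9 members, 7 were higher and 2 (Col1a2 and Fn1) lower, where 52.8% of all tested were higher. The members had a median log2 fold change of 0.62 beside 0.02 over all transcripts tested.

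In AngII+QDG vs AngII, which shares the AngII mice with the former comparison, 0 of 9 were called higher, against 2.03% of 21081 tested, and 1 (Fn1) lower, against 1.5%. A single member (1 of 9) had a limma unadjusted p below 0.05, against 7.86%, 0 an adjusted p below 0.05, against 1.73%, and 0 had values that did not overlap, against 2.86%. With upper quartile scaling, 3 (Col3a1, Eln and Fn1) had an unadjusted p below 0.05 in limma, against 11.3% of all tested. Of the 9 members, 6 were lower and 3 (Col1a2, Sparc and Timp1) higher, where 49.4% of all tested were higher. The members had a median log2 fold change of -0.41 beside -0.0032 over all tested.

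In AngII+QDG vs Control, 0 of 9 were called higher, against 2.08% of 21250 tested, and 1 (Fn1) lower, against 1.56%. Fn1 was also the 1 transcript with an adjusted p below 0.05 in limma, against 1.81%, and the 1 whose values did not overlap, against 3.24%, and 2 (Fn1 and Timp1) had an unadjusted p below 0.05, against 8.98%. As Fn1 had passed the filter through the Control mice, in which it was high, these counts give no support of their own, and without the filter its limma adjusted p was 0.0229. Of the 9 members, 7 were higher and 2 (Fn1 and Mmp2) lower, where 53.2% of all tested were higher. The members had a median of 0.26 beside 0.02 over all tested. The 3 comparisons share their groups of mice by pairs and are not independent. As each list of 9 is short, these counts describe the members.

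**Figure D2:**
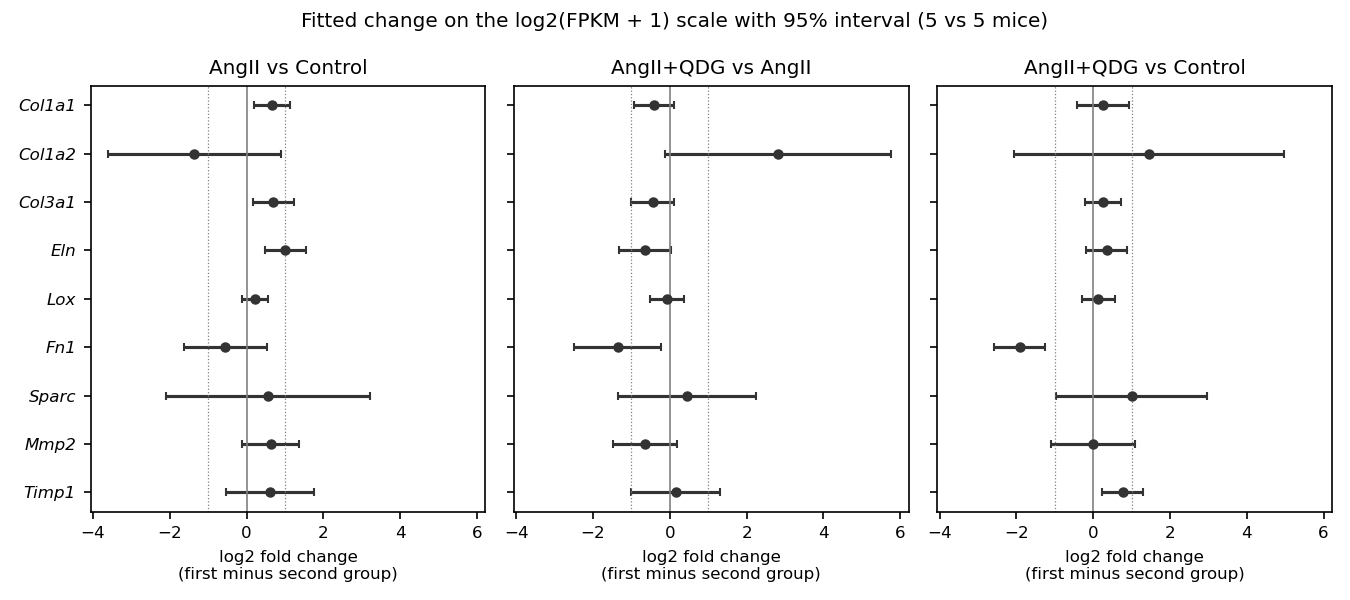
Fitted log2 fold change (horizontal axis, first minus second group of each panel title, log2(FPKM + 1) scale) of 9 matrix transcripts with 95% intervals from limma, 5 against 5 mice per panel, with dotted lines at a fold change of 2. The intervals of Col1a1, Col3a1 and Eln lie above 0 in AngII vs Control, that of Fn1 lies below 0 in both AngII+QDG panels, and those of Col1a2 and Sparc are the widest.

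Ratios within a mouse were formed to compare members free of any scaling between mice. The ratio of Col3a1 to Col1a1 had group medians near 1, at 0.882 to 1.34 (median 1.13) in Control, 0.906 to 1.83 (median 1.04) in AngII and 0.967 to 1.35 (median 1.05) in AngII+QDG mice. Its highest value, 1.83, was that of AngII mouse 4048. The difference of its log2 group means was 0.04 between AngII and Control mice (exact permutation p = 0.889), -0.04 in AngII+QDG vs AngII (exact permutation p = 0.897) and -0.0062 in AngII+QDG vs Control (exact permutation p = 0.952). The ratio of Eln to Col1a1 was 0.0893 to 0.205 in Control, 0.112 to 0.266 in AngII and 0.13 to 0.238 in AngII+QDG mice. Its log2 difference between AngII and Control mice was 0.36, within the spread between mice (exact permutation p = 0.286), so the changes of Eln and Col1a1 were not shown to differ. The ratio of Mmp2 to Timp1 lay between 3.39 and 23.7 in Control, 3.57 and 36.6 in AngII and 2.43 and 16.7 in AngII+QDG mice, with a log2 difference of -0.97 between AngII+QDG and AngII mice (exact permutation p = 0.262). The ratio of Col1a1 to Col1a2 was 40.9 to 317 in AngII mice, 0.808 to 99.9 in Control and 0.713 to 125 in AngII+QDG mice, below 1 in 3 mice, and here too no difference passed (smallest exact permutation p = 0.0635). Over these 12 tests the smallest Benjamini-Hochberg adjusted p was 0.667.

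**Figure D3:**
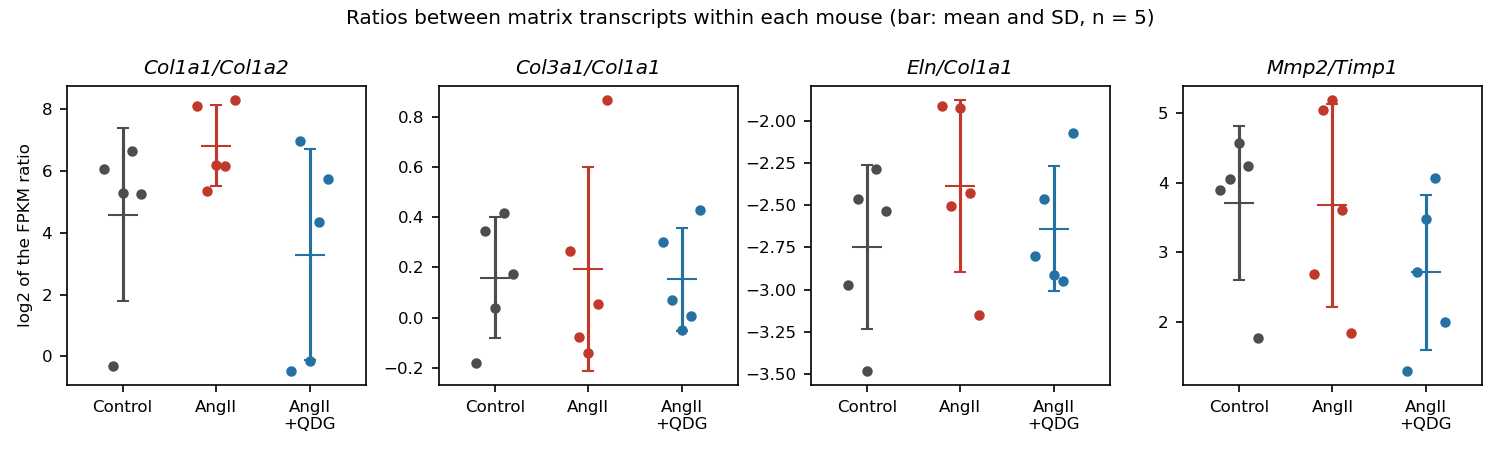
log2 of the FPKM ratio of pairs of matrix transcripts in each mouse (points), with mean and SD of each group of 5 (bars), 1 panel per pair with its own axis. Col3a1/Col1a1 stays within 0.882 to 1.83 as a linear ratio in all 15 mice, while Col1a1/Col1a2 falls below 1 in 3 mice.

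Members also varied between mice of the same group. Each value was expressed as its deviation from the mean of its own group on the log2(FPKM + 1) scale and set against that of Col1a1, and p-values came from 100000 permutations within groups. Col3a1 moved with Col1a1 (r = 0.742, permutation p = 0.00015, adjusted over 9 relations p = 0.000675, n = 15 mice) and lay on the same side of its group mean as Col1a1 in 13 of 15 mice. Its Spearman's rho was 0.832 (permutation p = 1e-04, adjusted p = 0.00081), and r was 0.644 without AngII+QDG mice 3981 and 3983, the farthest from the median of Col1a1. Lox (r = 0.648, permutation p = 0.0278, adjusted p = 0.0834; rho = 0.589, permutation p = 0.0467), Mmp2 (r = 0.61, permutation p = 0.0788, adjusted p = 0.118; rho = 0.725, permutation p = 0.0222) and Eln (r = 0.472, permutation p = 0.0772, adjusted p = 0.118; rho = 0.575, permutation p = 0.0424) were also positive but did not pass after adjustment, and without mice 3981 and 3983 their r was 0.417, 0.375 and 0.243. Timp1 had r = 0.163 (permutation p = 0.322; rho = 0.368, permutation p = 0.133).

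As Sparc fell into 13 high and 2 low mice, it was read over the 13 alone, a choice made after its values were seen, and there r was 0.542 (permutation p = 0.00477, adjusted p = 0.0215) and rho 0.571 (permutation p = 0.035, adjusted p = 0.105), with r = 0.55 without mice 3981 and 3983. Sparc lay on the same side of its group mean as Col1a1 in only 7 of these 13 mice. The permutation p for r of Sparc was 0.0861 over 14 mice, the low ones included, when Control mouse 3996 was left out. Col1a2, Fn1 and Fbn1 are not described in this way, since 1 to 3 mice stood far from the others. The FPKM of 1 mouse share its library and its scaling.

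**Figure D4:**
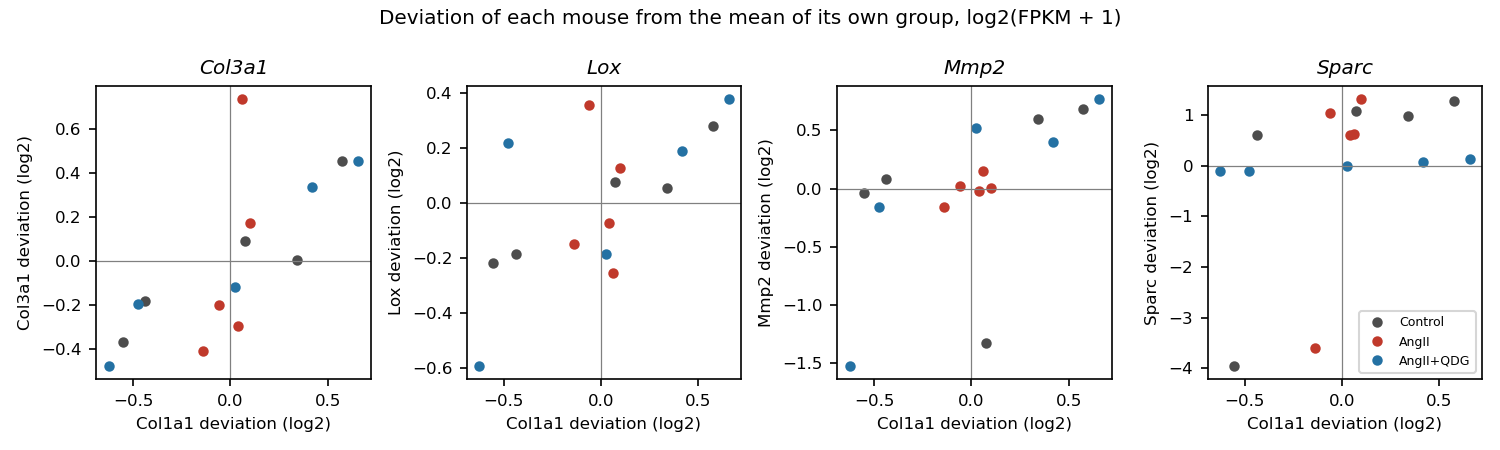
Deviation of Col3a1, Lox, Mmp2 and Sparc (vertical axes, log2 units, each with its own scale) from the mean of the mouse's own group against that of Col1a1 (horizontal axes, log2 units), 1 point per mouse, coloured by group. Col3a1 follows Col1a1 in all 3 groups (r = 0.742), and in the Sparc panel Control mouse 4000 and AngII mouse 3989 lie far below the other 13 mice.

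Single mice could be followed across members. AngII+QDG mouse 3983 had the highest level of its group in 7 of the 10 transcripts and mouse 3981 the lowest in 6, including Col1a1, Col3a1, Eln, Lox and Mmp2. Control mouse 4086 was highest in 6 and Control mouse 4000 lowest in 5. In the AngII group, mouse 3989 was lowest in 6, and mouse 4048 was highest in 5 (Col3a1, Fbn1, Fn1, Mmp2 and Timp1) and lowest in 3 (Col1a2, Eln and Lox).

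Among 11945 transcripts with at least 1 FPKM in all 15 mice, the transcripts whose deviations were most like those of Col1a1 over the 15 mice were ENSMUST00000121142 (r = 0.888), ENSMUST00000065086 (r = 0.868) and ENSMUST00000216770 (r = 0.864), whose genes the files do not name. Col3a1 ranked 36 of 11945, Lox 144, Mmp2 216, Eln 789, Sparc 1001, Timp1 3936 and Col1a2 8137, and these ranks are a description of likeness over all 15 mice, the mice that stood apart in Sparc and Col1a2 included, with no test.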

How the data were processed

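Transcript levels in the abdominal aorta came from 15 mice, grouped by the sample labels, 5 per group. Per the paper's methods, the authors filtered reads with NGSQC, aligned them with HISAT2 to GRCm38/mm10, used StringTie for reconstruction and quantification and DESeq for differences, and the labels name limma. The deposited values are FPKM per transcript, so no count test was run, and the precision rests on the 5 mice per group.

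For each comparison, only its 10 mice entered a fit in limma 3.58.1 (R 4.3.3, trend) on log2(FPKM + 1), for transcripts of at least 1 FPKM in at least 5 mice. Where AngII+QDG mice were compared, the fit held the 108027 Ensembl transcripts found in every file. Of the reconstructed transcripts, 1474 names occurred in every file. Whether a name meant the same transcript in both lists was not tested, so these were left out. P-values were adjusted (Benjamini-Hochberg) over all transcripts tested. The fit was tested on simulated data. Fbn1 and the ratios were tested with scipy 1.17.1 by exact permutation, and figures were drawn with matplotlib 3.10.9. Alternatives were no filter, 1 FPKM in every mouse, a pseudocount of 0.1, scaling by the upper quartile, all groups in 1 fit and leaving out each mouse. The named genes are all 10 members. Members, lists and tests were chosen with earlier results of these data known. The lists of other matrix genes and of cell type markers could not be used, since identifiers were not paired with gene names.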

Additional observations from a re-analysis of the deposited data

Results flagged for a closer look

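In the 30 sets of 5 values formed by 10 transcripts and 3 groups, 4 values stood farther from the rest of their group than Dixon's 95% limit allows, where chance gives about 1 in 20, or 1.5 of 30. That rate holds for independent and normally distributed values. These were FPKM without a log scale, from the same mice in every transcript, so the count of 4 is a description. Col1a2 was at 176 FPKM in Control mouse 4000 against 1.54 to 7.92 FPKM in the other 4 Control mice. Fbn1 was at 7.59 FPKM in AngII mouse 4048 against 0.289 to 0.845 FPKM in the rest of that group. Fn1 was at 0.0164 FPKM in AngII mouse 3989, where the other AngII mice lay between 4.06 and 5.31 FPKM. Fn1 was also at 2.26 FPKM in AngII+QDG mouse 3984, with 0.233 to 0.382 FPKM in the other AngII+QDG mice.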

How the results depend on the processing

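Of 763 refitted values of single members, ratios and relations, 714 kept their direction and their side of the criterion, 8 lost it, 6 gained it and 35 changed sign; the cause was not tested. With 1 FPKM required in every mouse, Fn1 was not tested, so the members called fell to 0 in AngII+QDG vs AngII and to 0 (called and adjusted) in AngII+QDG vs Control. A pseudocount of 0.1 gave 0 called in AngII+QDG vs AngII. Leaving out 1 mouse at a time, members called ranged from 0 to 1 in AngII vs Control and from 0 to 2 in AngII+QDG vs AngII, where Fn1 was not tested without AngII mouse 3988, 3986, 3987 or 4048 or AngII+QDG mouse 3984, and in the same comparison 0 to 1 members passed an adjusted p of 0.05 in limma. Relations with Col1a1 that passed numbered 1 to 3. Without both mice of low Sparc, a choice made after seeing the data, Fn1 in AngII vs Control turned to 0.0803 and the correlation of Col1a2 with Col1a1, -0.12 over all mice, to 0.167. With a pseudocount of 1 in the ratio, Mmp2/Timp1 in AngII vs Control turned to 0.0183.

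The other changes of sign came from single mice. The log2 fold change of Sparc ranged from -0.42 to 1.46 in AngII vs Control and from -0.46 to 0.76 in AngII+QDG vs AngII, where Lox ranged from -0.18 to 0.0662, Timp1 from -0.14 to 0.56 and Fbn1 from -0.62 to 0.0649. Mmp2 in AngII+QDG vs Control ranged from -0.34 to 0.38. The log2 difference of Col3a1/Col1a1 ranged from -0.13 to 0.12 in AngII vs Control, from -0.13 to 0.13 in AngII+QDG vs AngII and from -0.0912 to 0.0585 in AngII+QDG vs Control, that of Eln/Col1a1 in AngII+QDG vs Control from -0.0767 to 0.22 and that of Mmp2/Timp1 in AngII vs Control from -0.52 to 0.43. The correlation of Col1a2 with Col1a1 ranged from -0.519 to 0.144.

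Upper quartile scaling shifted the median of all transcripts in AngII+QDG vs AngII to -0.12, and no member changed sign under it in any comparison, while the values of Eln in AngII and Control mice then overlapped. Correlation of Sparc with Col1a1 over 15 mice, clusters included (r = 0.439, permutation p = 0.00013, adjusted p = 0.000675; rho = 0.6), no longer passed with that scaling (r = 0.403) or without Control mouse 3996 (r = 0.413). Timp1 in AngII+QDG vs Control had a limma unadjusted p of 0.116 with all 3 groups in 1 fit. No paired analysis was possible because the labels give no replicate numbers shared between groups. Depth is unknown, transcripts of a gene could not be summed, and with 5 mice per group wide intervals, as those of Col1a2 and Sparc, hold a fold change of 2.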

Other observations

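The low and uneven values of the Col1a2 transcript were set beside the reconstructed loci of the files, which carry no gene name. After the values had been seen, the locus whose sum with the Col1a2 transcript was most like Col1a1 between mice was sought in each list separately, among 947 loci of at least 20 FPKM in the list of Control and AngII mice and among 750 in the list of AngII+QDG mice. This is a description with no test, and nothing shows that both searches found the same locus. Group means were not taken out in the search. A sum that is higher in AngII than in Control mice, as Col1a1 is, was therefore favoured by the choice. So was a locus that is low where the Col1a2 transcript is high. The locus found in the first list (r of the sum with Col1a1 0.903) was at 291, 75.05, 343, 189 and 243 FPKM in Control mice, in the order used for Col1a1, with the lowest value in mouse 4000, in which the Col1a2 transcript was high. In AngII mice it was at 404, 334, 320, 368 and 386 FPKM. Its sum with the Col1a2 transcript was 267 ± 59.8 FPKM in Control and 366 ± 33.1 FPKM in AngII mice (SD, n = 5 each), where the Col1a2 transcript alone was at 39.0 ± 76.6 and 3.78 ± 2.62 FPKM.

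The locus found in the list of AngII+QDG mice (r of the sum with Col1a1 0.991) was listed at 0 and 2.15 FPKM in mice 3981 and 3983, in which the Col1a2 transcript was high, and at 360, 289 and 220 FPKM in the other 3. Its sum with the Col1a2 transcript was 310 ± 90.7 FPKM (SD, n = 5), where the transcript alone was at 136 ± 192 FPKM. The gene of either locus is not given by the files, so whether it belongs to Col1a2 was not tested. The criterion by which each was chosen fixes its likeness to Col1a1. It also favours low values of the locus in mice with a high Col1a2 transcript, so that pattern gives no support of its own.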
